A study of Homo sapiens with 20 samples.

Results

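The JAK, STAT and SOCS loci are described here as 34 RUNX1 peaks out of the 26642 in the table, all of those that lay within 50 kb of the RefSeq span (assembly GRCh38) of SOCS1, SOCS2, SOCS3, CISH, STAT3, STAT5A, STAT5B, JAK1 or JAK2. RUNX1 binding was measured by chromatin immunoprecipitation with sequencing (ChIP-seq) in THP-1 cells, a human cell line from an acute monocytic leukemia, to ask how a lower level of the transcription factor PU.1 changes where its binding partner RUNX1 sits. Control cells carried a scramble shRNA and knockdown cells an shRNA against PU.1, both induced with doxycycline. There were 6 control and 6 knockdown libraries from 2 experimental rounds (batches), with 3 control and 2 knockdown libraries in batch 1 and 3 control and 4 knockdown libraries in batch 2. Per the study, each replicate was a separate immunoprecipitation from these cell lines. Both arms therefore shared the doxycycline treatment and an shRNA cassette, and differed in the sequence that the cassette targets. The arms were also separate cell lines, so the knockdown cannot be told apart from other differences between these lines.

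JAK kinases sit on the inner side of cytokine receptors and phosphorylate STAT proteins when a cytokine binds, after which STAT dimers enter the nucleus and switch on genes. Among the genes that STATs switch on are those of the SOCS proteins and CISH, which bind the receptor or the kinase and shut the signal down. In myeloid cells this circuit carries the signals of interferons, many interleukins and some colony-stimulating factors.

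The peaks were not spread evenly over the member genes. Each peak was assigned to the nearest member, which gave 11 peaks to STAT5B, 7 to SOCS3, 5 to CISH, 4 to SOCS1, 3 to JAK2, 2 to STAT3 and 2 to JAK1. No peak lay within 50 kb of SOCS2. The 2 peaks within 50 kb of STAT5A were also within reach of its neighbour STAT5B and were assigned there. Of the 34 peaks, 8 overlapped a member gene, 14 overlapped only other protein-coding genes and 12 overlapped no protein-coding gene. Genes of other types were not considered, here or where a peak is said below to lie between genes. A peak near a gene is not thereby shown to act on it. Only 3 peaks covered the start of a member gene, namely those of SOCS1, STAT3 and STAT5B. The peaks were 486 to 2507 bp wide, with a median of 938 bp against 889 bp over all peaks.

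The 250 bases before these 3 starts are shown because they are the stretches of member promoters that the peaks covered. The sequences are from RefSeq (GRCh38.p14), all on the minus strand, at chr16:11256205-11256454 for SOCS1, chr17:42388443-42388692 for STAT3 and chr17:42276392-42276641 for STAT5B. Capitals mark a match to a searched motif.
SOCS1: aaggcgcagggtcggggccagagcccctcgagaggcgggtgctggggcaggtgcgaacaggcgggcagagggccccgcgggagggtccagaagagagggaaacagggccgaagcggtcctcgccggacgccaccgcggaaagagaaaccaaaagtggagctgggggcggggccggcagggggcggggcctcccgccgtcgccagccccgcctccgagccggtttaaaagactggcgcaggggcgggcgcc
STAT3: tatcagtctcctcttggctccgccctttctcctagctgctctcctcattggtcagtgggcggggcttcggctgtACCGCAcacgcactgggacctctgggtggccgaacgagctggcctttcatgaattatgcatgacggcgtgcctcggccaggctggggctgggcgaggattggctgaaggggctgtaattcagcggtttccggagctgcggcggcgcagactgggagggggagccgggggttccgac
STAT5B: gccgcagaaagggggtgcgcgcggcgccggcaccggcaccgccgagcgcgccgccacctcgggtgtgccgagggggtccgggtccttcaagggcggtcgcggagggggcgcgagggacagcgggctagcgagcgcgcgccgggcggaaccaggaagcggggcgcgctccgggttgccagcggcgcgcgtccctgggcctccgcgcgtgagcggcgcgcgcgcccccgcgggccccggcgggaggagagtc

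Motifs were searched as letters on both strands: TGTGGT and TGCGGT, which RUNX factors bind, GAGGAA, the core that PU.1 prefers among ETS factors, and TTCNNNGAA, the site of STAT dimers. Of 22198 windows of the same length before protein-coding starts, 9.36% held TGTGGT, 6.82% held TGCGGT, 23.7% held GAGGAA and 5.92% held TTCNNNGAA. The STAT3 window held 1 match, ACCGCA, which is TGCGGT read on the other strand, at bases 176 to 171 before the start. The SOCS1 and STAT5B windows held none of these letters. The CISH window held 4 STAT motifs (TTCCTGGAA, TTCTTGGAA, TTCTAGGAA and TTCCGGGAA), but no RUNX1 peak covered the CISH start. GAGGAA lay at bases 13 to 8 before a JAK2 start. Before STAT5A starts it lay at bases 31 to 26 and, read on the other strand, at bases 229 to 224. No peak covered these JAK2 and STAT5A windows either. No matches shared bases with each other. A match describes letters only, and was not tested as a binding site.

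Normalised counts below are reads in a peak divided by the library's size factor. Calls of gained or lost signal needed a DESeq2 p under 0.05 after Benjamini-Hochberg adjustment over all peaks and a fold change over 1.1, with batch as a covariate. Control libraries held 630247 to 1199004 reads in peaks and knockdown libraries 938745 to 1719840. The member peaks held a median of 32.0 raw reads per library and at most 217, and their log2 fold changes had a median SE (standard error) of 0.21, as over all peaks. In these bulk samples, binding in fewer cells and less binding per cell cannot be told apart. PU.1 itself is not measured by this assay.

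RUNX1 signal moved both ways at the JAK, STAT and SOCS loci. All 3 JAK2 peaks were lost, though the call 41.9 kb before the start was kept in only 16 of 20 alternatives. A peak downstream of each of SOCS1, SOCS3 and CISH was gained without overlap between the groups of either batch. Another peak downstream of SOCS3 was lost, also without overlap in either batch. The groups did not overlap in either batch at 29.4% of member peaks, against 28.3% of all peaks. Neighbouring peaks near STAT5B went in opposite directions. In all, 13 of the 34 peaks (38.2%) were called, against 42.0% of all peaks. Of the 34 peaks, 8 (23.5%) were gained, against 21.3% of all peaks, and 5 (14.7%) were lost, against 20.7% of all peaks. These shares lay close to those of the whole table for the calls and the gains, and on counts this small no difference was tested. With fold changes expressed relative to the median of the surrounding 10 Mb (regional centring), 6 peaks were gained and 6 lost. The median log2 fold change over the 34 peaks was 0.0060, and over all peaks it was -0.025. The 21 other peaks had log2 fold changes between -0.42 and 0.39, and a missing call does not show that signal was unchanged. A change over 2-fold was fitted at 6 of the called peaks, and the smallest called log2 change was 0.38 in size.

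**Figure D1:**
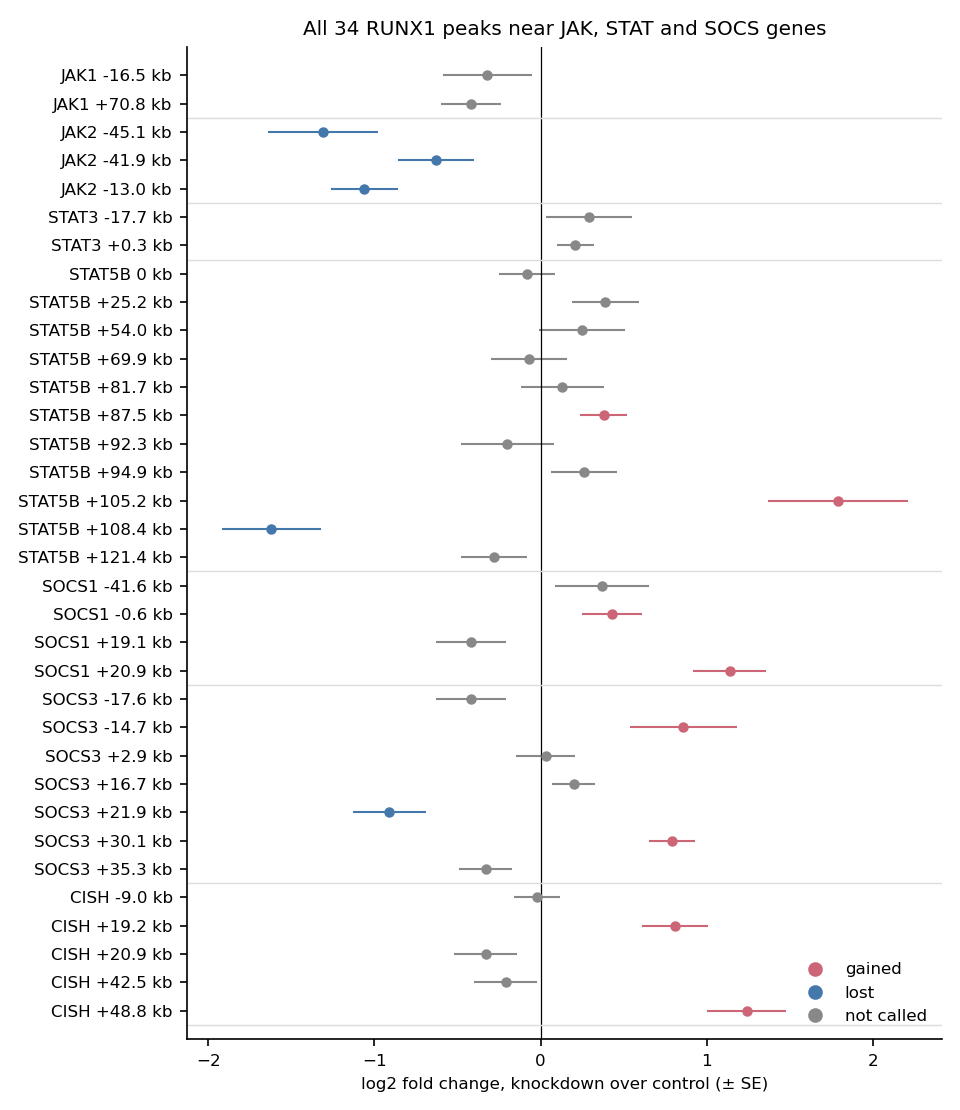
Fitted log2 fold change (knockdown over control, x axis) of each of the 34 peaks, with bars for the standard error, ordered by member gene and labelled with the distance of the peak centre from the gene start in kb (positive is downstream). All 3 JAK2 peaks lie left of 0, and the largest changes of both directions, 1.79 and -1.62, lie side by side in the STAT5B group.

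The kinase genes are taken first. JAK2 encodes the kinase of the receptors for erythropoietin and some colony-stimulating factors, and its mutation drives myeloproliferative disease. Its 3 peaks lay between genes on chromosome 9, before the JAK2 start, and none lay in the gene. At the peak 13 kb before the start (4970764 to 4972023), control libraries held 33.8 to 64.2 normalised counts with a median of 44.4. Knockdown libraries held 21.7 to 25.0 with a median of 23.5. Every knockdown library was below every control library. The mean fell from 48.3 ± 12.7 to 23.5 ± 1.33 (SD, n = 6 each), a log2 fold change of -1.06 ± 0.20 (SE) with a DESeq2 adjusted p of 1.2e-06.

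At the peak 45.1 kb before the JAK2 start (4938853 to 4939729), control libraries held 47.4 to 77.2 with a median of 55.0. Knockdown libraries held 8.31 to 42.3 with a median of 22.6. The groups did not overlap, though knockdown replicate 4 at 42.3 stood well above the other knockdown libraries (8.31 to 26.5). The mean fell from 57.8 ± 10.7 to 22.4 ± 12, a log2 fold change of -1.31 ± 0.33 with a DESeq2 adjusted p of 4.2e-04, the largest loss among the JAK2 peaks. Between these lay a weaker loss 41.9 kb before the start (4942144 to 4942785), from 38.0 ± 5.90 to 24.3 ± 9.23, where knockdown replicates 2, 4 and 6 (32.3, 31.0 and 34.5) reached into or just below the control range of 31.6 to 47.2. Its log2 fold change of -0.63 ± 0.23 had a DESeq2 adjusted p of 0.0176, and the call was lost without control replicate 3 (0.0516), without knockdown replicate 1 (0.0906) or 5 (0.0553), and after regional centring (0.10). The pair 2414 bp apart differed in the size of its loss by 0.73 ± 0.26 on the log2 scale (limma on the ratio of neighbouring peaks, adjusted p 0.0247).

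Summed over the 3 JAK2 peaks, the normalised count was 144 ± 22.9 in control and 70.2 ± 18.7 in knockdown libraries. The stretch of chromosome 9 around JAK2 was itself shifted slightly down, with a median log2 fold change of -0.17 in the 10 Mb around these peaks. Relative to it, the log2 fold changes were -1.14, -0.45 and -0.88 in order along the chromosome. Within 1 Mb of the JAK2 start lay 16 other peaks, of which 7 (43.8%, against 42.0% of all peaks) were called and 3 of these lost, with a median log2 fold change of -0.13. The part of this regional shift in the JAK2 values was otherwise not tested.

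JAK1, the kinase shared by interferon and many interleukin receptors, had a peak inside the gene and another 16.5 kb before its start on chromosome 1, and neither was called. In the gene (64895251 to 64896249), control libraries held 32.5 to 46.8 with a median of 42.7 and knockdown libraries 27.4 to 39.0 with a median of 29.4. Within each batch every knockdown library was below every control library. The log2 fold change was -0.42 ± 0.18 with a DESeq2 adjusted p of 0.0521. It was called by edgeR (adjusted p 0.0340), so this peak sat at the edge of the threshold. The other JAK1 peak (65083986 to 65084516) went from 18.6 ± 5.57 to 15.5 ± 2.90 (-0.32 ± 0.27 on the log2 scale with a DESeq2 adjusted p of 0.361).

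The STAT genes are the transcription factors of the pathway. STAT3, which carries interleukin 6 and colony-stimulating factor signals, had the strongest start peak of the members (chromosome 17, 42387040 to 42389231), with 53.4 normalised counts per kb against 26.8 at the SOCS1 start and 20.4 at the STAT5B start. Control libraries held 86.8 to 139 normalised counts with a median of 108 and knockdown libraries 117 to 138 with a median of 125. The groups overlapped. The log2 fold change was 0.21 ± 0.11, and the peak was not called (DESeq2 adjusted p 0.126, 95% interval -0.01 to 0.43). When only peaks with at least 10 counts in every library were tested, it passed (adjusted p 0.0436). A weaker peak within CAVIN1, 17.7 kb before the start, was not called either (0.29 ± 0.26 on the log2 scale with a DESeq2 adjusted p of 0.387).

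STAT5B and its close relative STAT5A carry the signals of growth hormone, interleukin 2 and some colony-stimulating factors. They lie next to each other and to STAT3 on chromosome 17. The peak over the STAT5B start (42275167 to 42277673) held 53.4 ± 14.7 normalised counts in control and 48.8 ± 5.22 in knockdown libraries. The log2 fold change of -0.08 ± 0.17 had a DESeq2 adjusted p of 0.761, with a 95% interval of -0.41 to 0.26. A further 3 peaks inside STAT5B were not called either, with log2 fold changes of -0.07, 0.25 and 0.39. The calls of this group lay past the 3′ end of STAT5B, over other genes.

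The largest changes of all members were a pair of weak peaks inside KCNH4, a potassium channel gene, with 2679 bp between them. At the farther one (42167696 to 42168235), control libraries held 19.1 to 28.8 with a median of 22.2 and knockdown libraries 3.65 to 9.88 with a median of 8.66. At the nearer one (42170915 to 42171400), control libraries held 0 to 6.51 with a median of 4.25 and knockdown libraries 10.0 to 27.4 with a median of 13.9. The groups were apart at both peaks, in opposite directions, so that signal was high in control cells at one and high in knockdown cells at the other. The farther peak fell from 23.0 ± 3.44 to 7.38 ± 2.82 (-1.62 ± 0.30 on the log2 scale with a DESeq2 adjusted p of 1.1e-06). The nearer peak rose from 4.14 ± 2.37 to 16.3 ± 6.63 (1.79 ± 0.42 on the log2 scale with a DESeq2 adjusted p of 1.2e-04). Its level in control cells rested on few reads. Control replicate 4 had none, which allows up to 3 reads or 5.20 normalised counts. The ratio of the nearer to the farther peak changed by 3.68 ± 0.47 on the log2 scale (limma, adjusted p 5.6e-07). Since control replicate 4 had no reads at the nearer peak, the size of this change depends in part on the 0.5 added to each count.

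Within GHDC, 87.5 kb downstream of the STAT5B start and past the gene, lay the member peak with the most signal per length (42188436 to 42189423), at 81.0 normalised counts per kb. It rose from 69.1 ± 13.7 to 91.0 ± 9.16, with knockdown libraries at 81.3 to 105 and control libraries at 46.8 to 88.4, so the groups overlapped. The log2 fold change of 0.38 ± 0.14 had a DESeq2 adjusted p of 0.0182. Among other settings, this call was lost without control replicate 4 (0.104) or 5 (0.0586) and after regional centring (0.0833). The other 4 peaks past the 3′ end, over RAB5C, KCNH4, HCRT and the GHDC start, were not called, with log2 fold changes from -0.28 to 0.26.

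**Figure D2:**
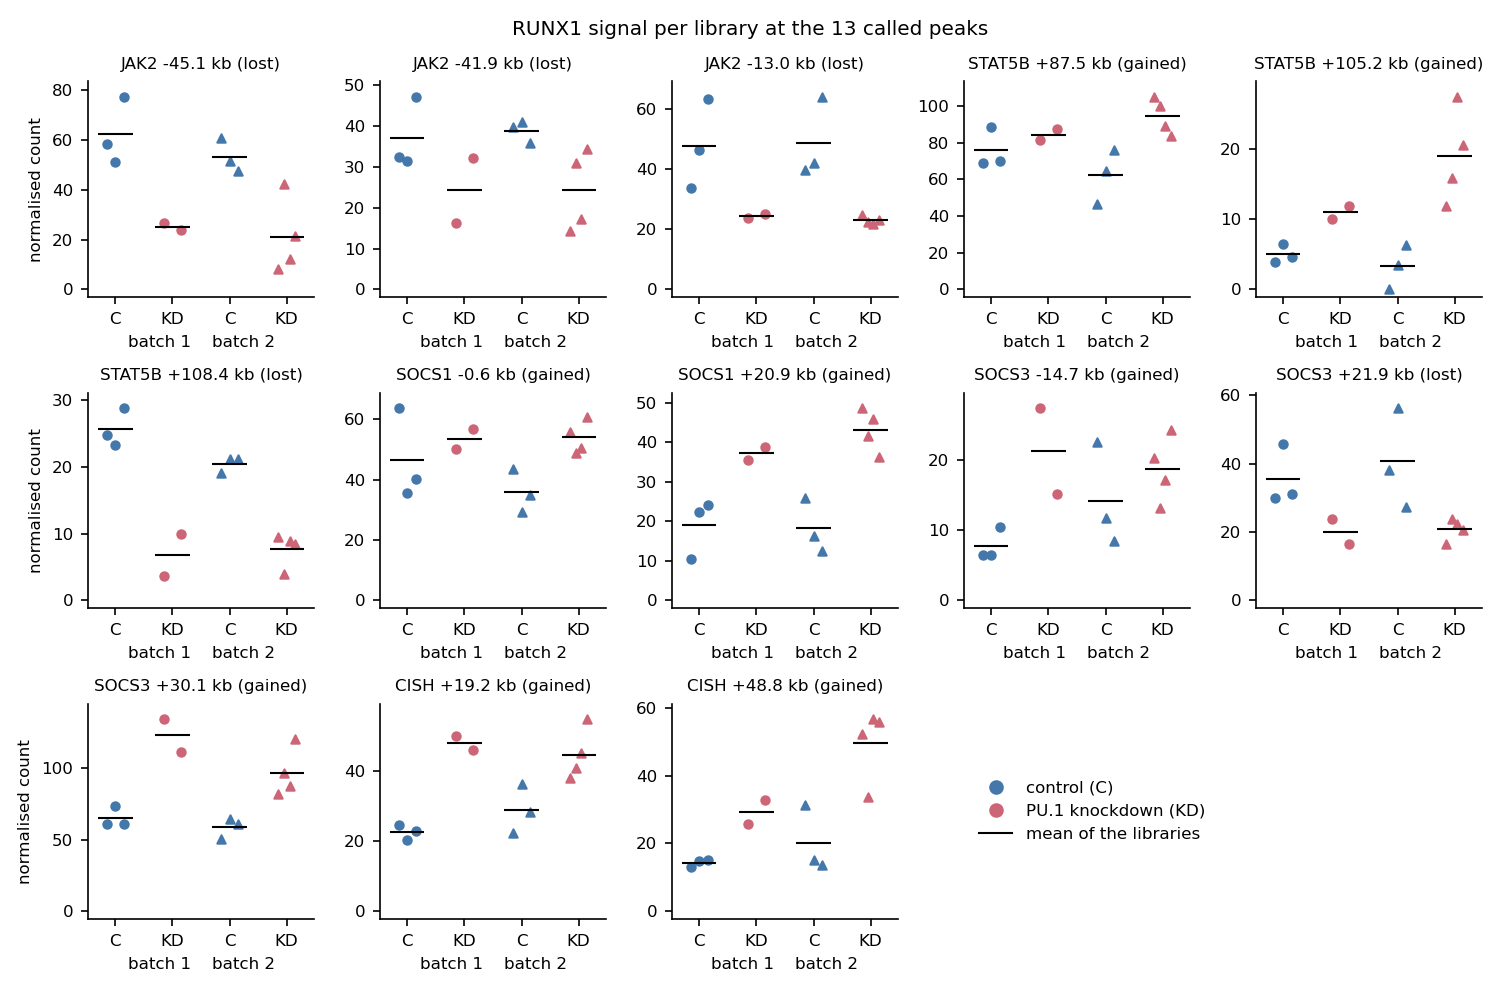
Normalised count (y axis) of every library at the 13 called peaks, with control (C) and PU.1 knockdown (KD) libraries of batch 1 as circles and of batch 2 as triangles, and a line for the mean of each set. At the JAK2 peak 13 kb before the start the knockdown libraries lie within 21.7 to 25.0, all below the control libraries, and at the SOCS3 peak 30.1 kb past the start they lie at 81.9 and above, all above the control libraries.

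The inhibitors come last. SOCS1 blocks JAK kinases directly and restrains interferon signalling. Its start peak (chromosome 16, 11255880 to 11257652) held 29.3 to 63.7 normalised counts in control libraries with a median of 37.8, and 48.9 to 60.6 in knockdown libraries with a median of 53.1. Control replicate 1 at 63.7 was the highest of all libraries, and the other control libraries lay below every knockdown library. The mean rose from 41.1 ± 12.1 to 53.7 ± 4.62 (0.43 ± 0.18 on the log2 scale with a DESeq2 adjusted p of 0.0340). The call was lost in 10 of 20 alternatives, among them regional centring (0.0678), without any 1 of control replicates 2, 3, 5 and 6 (0.0610 to 0.140) and without any 1 of knockdown replicates 2, 3, 5 and 6 (0.0509 to 0.0768), so it is uncertain.

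A firmer gain lay between genes, 20.9 kb downstream of the SOCS1 start (11234890 to 11235790). Control libraries held 10.4 to 26.0 with a median of 19.4 and knockdown libraries 35.6 to 48.7 with a median of 40.2. The groups did not overlap. The mean rose from 18.7 ± 6.45 to 41.2 ± 5.27, by 2.20-fold (1.14 ± 0.22 on the log2 scale with a DESeq2 adjusted p of 3.6e-06). Its neighbour 997 bp closer to the gene (11236788 to 11237477) went from 34 ± 6.24 to 25.0 ± 5.89 and was not called (-0.42 ± 0.21 on the log2 scale with a DESeq2 adjusted p of 0.103). Their ratio, neighbour over gained peak, changed by -1.61 ± 0.27 on the log2 scale (limma, adjusted p 1.8e-05). The SOCS1 peak 41.6 kb before the start was not called (0.37 ± 0.28, DESeq2 adjusted p 0.295).

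SOCS3 inhibits the interleukin 6 receptor and the receptor of granulocyte colony-stimulating factor. No peak covered its start. The peak over its 3′ end (chromosome 17, 78356087 to 78357411) held 43.1 ± 6.23 normalised counts in control and 45.3 ± 9.15 in knockdown libraries (0.03 ± 0.18 on the log2 scale with a DESeq2 adjusted p of 0.916, 95% interval -0.32 to 0.38). The calls of this gene lay away from it, between genes. The strongest SOCS3 peak, 30.1 kb downstream of the start (78328896 to 78330245), held 50.3 to 73.5 in control libraries with a median of 61.1 and 81.9 to 134 in knockdown libraries with a median of 104. All knockdown libraries were above all control libraries. The mean rose from 61.9 ± 7.46 to 105 ± 20.2 (log2 fold change 0.79 ± 0.14), with the smallest DESeq2 adjusted p of the members, 1.4e-07.

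At 21.9 kb downstream (78337258 to 78338193) the direction turned. Control libraries held 27.4 to 56.3 with a median of 34.6 and knockdown libraries 16.5 to 23.8 with a median of 21.4. The groups did not overlap, and the mean fell from 38.1 ± 11.1 to 20.6 ± 3.34 (-0.91 ± 0.22 on the log2 scale with a DESeq2 adjusted p of 2.3e-04). From 16.7 kb to 35.3 kb past the start lay 4 peaks in a row, with log2 fold changes of 0.20, -0.91, 0.79 and -0.33, read away from the gene. The 3 ratios between neighbours in this row all changed (limma, adjusted p from 4.2e-07 to 3.2e-04). On the other side, 14.7 kb before the start (78375278 to 78375937), a weak peak rose from 11 ± 6.02 to 19.6 ± 5.46 (0.86 ± 0.32 on the log2 scale with a DESeq2 adjusted p of 0.0210). The groups overlapped there, since control replicate 4 held 22.5, and the call was lost without control replicate 2 (0.0575) or 6 (0.0753) and without knockdown replicate 1 (0.150). Next to it, the peak over the start of PGS1, a gene of phospholipid synthesis, was not called (-0.42 ± 0.21, DESeq2 adjusted p 0.0890), though it passed after regional centring (0.0430) and without knockdown replicate 1 (0.0428).

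CISH, the founding member of the SOCS family, is switched on by STAT5 and dampens cytokine receptors. All 5 of its peaks lay over other genes of chromosome 3, and none over CISH. Inside HEMK1, 19.2 kb downstream of the CISH start (50592009 to 50593117), control libraries held 20.5 to 36.3 with a median of 23.9 and knockdown libraries 38.0 to 55.0 with a median of 45.7. The groups did not overlap. The mean rose from 25.9 ± 5.76 to 45.9 ± 6.14 (0.81 ± 0.20 on the log2 scale with a DESeq2 adjusted p of 2.2e-04). Only 381 bp separated it from a peak of the same gene (50590038 to 50591627) that went from 45.6 ± 5.4 to 36.0 ± 8.91 without a call (-0.33 ± 0.19, DESeq2 adjusted p 0.145). The ratio of the gained peak to this neighbour changed by 1.17 ± 0.23 on the log2 scale (limma, adjusted p 1.5e-04).

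Inside C3orf18, 48.8 kb from the CISH start (50562603 to 50563435), control libraries held 13 to 31.2 with a median of 14.9 and knockdown libraries 25.6 to 56.7 with a median of 43.0. The ranges met over the whole set, because control replicate 4 held 31.2 and the other control libraries at most 15.2, but within each batch every knockdown library was above every control library. The mean rose from 17.2 ± 6.94 to 42.8 ± 13.7 (1.24 ± 0.24 on the log2 scale with a DESeq2 adjusted p of 1.9e-06). The peak over the HEMK1 start, which also overlapped C3orf18 and lay 5338 bp away, was not called (-0.21 ± 0.19, DESeq2 adjusted p 0.383). The strongest CISH peak, inside the kinase gene MAPKAPK3 on the other side (50620186 to 50621434), held 73.0 ± 12.6 in control and 73.2 ± 8.76 in knockdown libraries. Its log2 fold change of -0.02 ± 0.14 had a DESeq2 adjusted p of 0.936, with a 95% interval of -0.29 to 0.25.

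**Figure D3:**
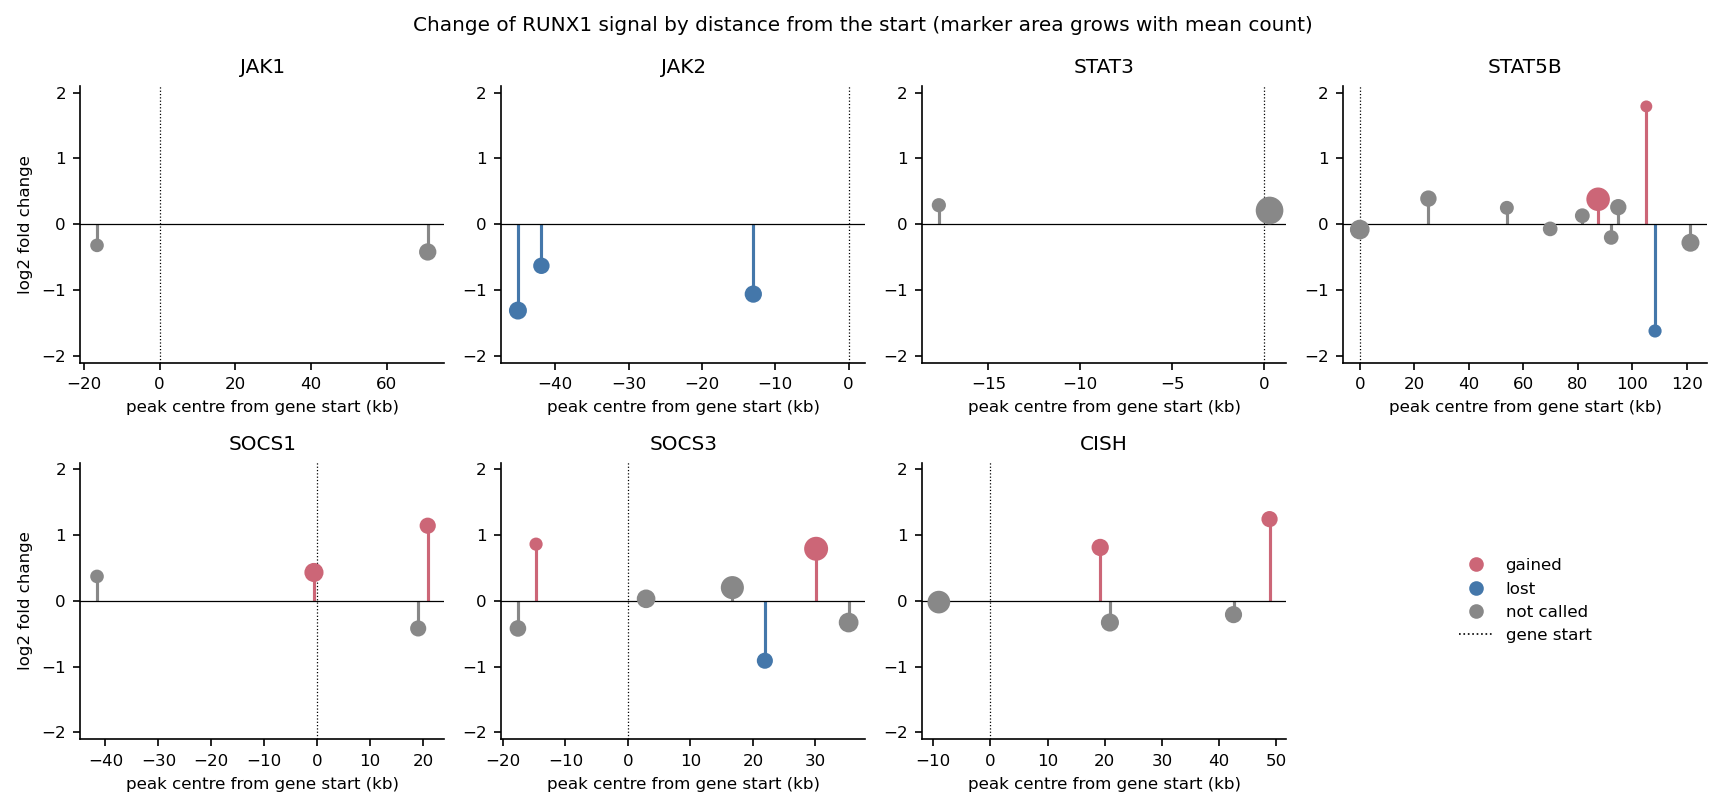
Log2 fold change (y axis) of each member peak against the distance of its centre from the start of the assigned gene in kb (x axis, positive is downstream), with marker area growing with the mean normalised count. A gained and a lost peak lie side by side downstream of SOCS3 (0.79 and -0.91) and past STAT5B (1.79 and -1.62), and the 3 JAK2 peaks, all before the start, are lost.

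Position and neighbours were then compared across the members. Of the 8 member peaks that covered a protein-coding start, whether of a member or another gene, 1 (12.5%) was called, against 21.3% of the 4726 such peaks in the table. Of the other 26, 12 (46.2%) were called, against 46.4% of all peaks away from starts. No difference between the members and the table was tested for either class. Among neighbouring peaks less than 10 kb apart, the ratio between neighbours changed in 10 of 13 member pairs (76.9%, limma adjusted p under 0.05 over 6270 pairs), against 41.9% of all such pairs. These pairs share peaks with each other, and this comparison was chosen after the values were seen, so the higher share is a description. A ratio between neighbours is free of any shift that both peaks share.

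The comparison was repeated within each batch. In batch 1, 4 member peaks (11.8%) were called, against 12% of all peaks. In batch 2, 8 (23.5%) were called, against 25.8%. These counts rested on single libraries and on the tool, since batch 1 gave 0 calls without control replicate 3 or knockdown replicate 1 or 2 and 2 without control replicate 2, batch 2 gave 5 without control replicate 5, and edgeR called 10 in batch 1 and 13 in batch 2. Both batches called 2 peaks (5.88%, against 10.4% of all peaks), the loss inside KCNH4 and the gain 30.1 kb downstream of SOCS3. The sign of the fold change was the same in both batches for 29 of the 34 peaks (85.3%, against 80.0% of all peaks). It was the same for all 13 called peaks and for 99.9% of all called peaks, which the fit over both batches selects for. A difference in the knockdown effect between batches was called at 0 member peaks, as at 0% of all peaks, by a DESeq2 adjusted p under 0.05. With only 2 knockdown libraries in batch 1, this does not show that the effects were the same. At an unadjusted p under 0.05, 1 member peak differed (2.94%, against 2.51% of all peaks), the one over the GHDC start with a log2 fold change of 0.90 in batch 1 and -0.37 in batch 2 (DESeq2 unadjusted p 0.0130). The edgeR interaction test also gave 0 member peaks after adjustment and 2 before it. In 10 member peaks (29.4%, against 28.3% of all peaks), knockdown and control libraries did not overlap in either batch, with 5 above and 5 below, and 9 of these were called. The other was the peak inside JAK1.

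**Figure D4:**
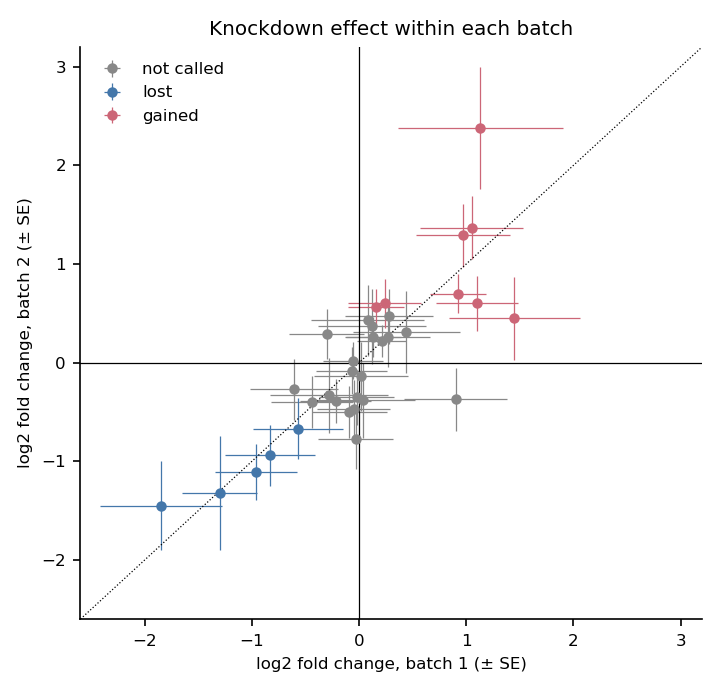
Log2 fold change with its standard error in batch 1 (x axis, 3 control and 2 knockdown libraries) and batch 2 (y axis, 3 control and 4 knockdown libraries) for each of the 34 peaks. The 13 called peaks, selected on both batches together, have the same sign on both axes, and the dotted line marks equal change.

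The other genes of the pathway were read out from lists of 53 genes, of which 51 had a peak within 50 kb. Of their 212 peaks, 85 (40.1%) were called, against 42.0% of all peaks, with 38 gained and 47 lost. Over all peaks, 21.3% were gained and 20.7% lost. Near the other JAK and STAT genes, 9 of 35 peaks were gained and 6 lost (42.9% called). A peak near JAK3, the kinase of lymphoid cytokine receptors, rose from 10.9 ± 3.31 to 34 ± 5.72 (1.53 ± 0.26 on the log2 scale with a DESeq2 adjusted p of 8.1e-08). A peak near STAT6, which carries interleukin 4 signals, fell from 20.4 ± 5.04 to 5.90 ± 2.11 (-1.80 ± 0.33, DESeq2 adjusted p 8.4e-07). A strong peak near TYK2, a kinase of interferon receptors, fell from 165 ± 19.6 to 112 ± 7.82 (-0.59 ± 0.10, DESeq2 adjusted p 1.2e-07). These single peaks do not stand for their genes. Of the peaks near JAK3, 3 of 6 were gained and 1 lost. Near STAT6, 4 of 9 were gained and 1 lost, and near TYK2, 2 of 9 were gained and 2 lost. The other SOCS genes had 6 peaks, of which 1, near SOCS4, was lost (16.7% called, with a log2 fold change of -0.43 ± 0.18 and a DESeq2 adjusted p of 0.0418).

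Near the receptors, 11 of 72 peaks were gained and 23 lost (47.2% called, against 42.0% of all peaks). The shares over all peaks were 21.3% gained and 20.7% lost, and no difference was tested. A peak near IFNGR2, a chain of the interferon gamma receptor, fell from 95.1 ± 10.7 to 62.7 ± 6.28 (-0.58 ± 0.13, DESeq2 adjusted p 6.4e-05). A peak near IL6R, the interleukin 6 receptor, rose from 88.1 ± 19.2 to 189 ± 24.6 (1.07 ± 0.13, DESeq2 adjusted p 4.0e-15). Of all 16 peaks near IL6R, 4 were gained and 4 lost, and of the 5 near IFNGR2, 0 were gained and 2 lost. Near the other negative regulators, 8 of 43 peaks were gained and 10 lost (41.9% called, against the same 42.0%). Among them, a peak near SH2B3, an adaptor that restrains JAK2, rose from 5.47 ± 1.73 to 24.0 ± 4.54 (2.1 ± 0.35, DESeq2 adjusted p 3.1e-08), and a peak near PTPRC, the CD45 phosphatase, fell from 55.5 ± 11 to 26.8 ± 3.96 (-1.11 ± 0.18, DESeq2 adjusted p 1.7e-08). Of all 6 peaks near SH2B3, 1 was gained and 1 lost.

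Near target genes of STAT factors, 10 of 56 peaks were gained and 7 lost (30.4% called, against 42.0% of all peaks). A peak near the kinase gene PIM1 fell from 63.8 ± 12.9 to 26.7 ± 4.95 (-1.33 ± 0.17, DESeq2 adjusted p 8.5e-13), and a peak near BCL2L1, which encodes an inhibitor of apoptosis, rose from 41.4 ± 5.0 to 72.7 ± 8.51 (0.79 ± 0.16, DESeq2 adjusted p 4.4e-06). Each gene of the lists was read out by its peak with the smallest adjusted p, the genes named were chosen after their values were seen, and neighbouring genes can share a peak. The median log2 fold change was -0.085 for the other JAK and STAT genes, 0.0013 for the other SOCS genes, -0.13 for the negative regulators, -0.10 for the receptors and -0.011 for the target genes, and no list was tested against another.

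**Figure D5:**
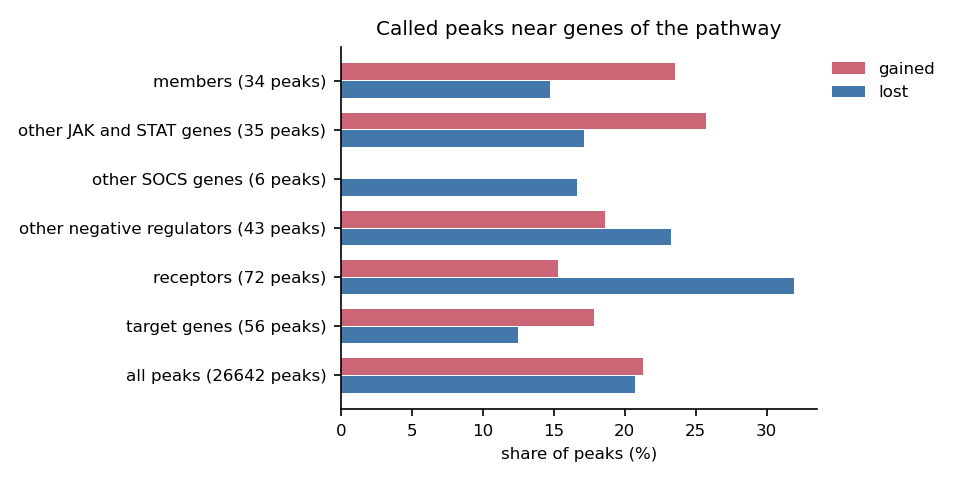
Share of peaks (x axis, in percent) called gained or lost within 50 kb of the members and of each list of other pathway genes, with the number of peaks in brackets and all peaks of the table at the bottom. Members had 23.5% gained and 14.7% lost, against 21.3% and 20.7% of all peaks.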

How the data were processed

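The labels assign 12 of the 20 samples to RUNX1 immunoprecipitations and the rest to IgG, which were not analysed here. The authors deposited raw read counts per peak and library, with the peak width in bp as other information. Per the study's methods and the submitters' processing notes, they used Bowtie2, SAMtools, MACS2, bedtools and featureCounts, called peaks per condition and batch and merged them, so the peak set came from the libraries compared. The build named in the methods is a mouse build, and coordinates were taken as GRCh38, which the submitters' notes also name. A sample list of the study gives the batch 1 groups the other way round, and the GEO labels and column names were followed. Under these, 80.0% of all peaks had the same sign of change in both batches, and an exchange in batch 1 alone would turn its signs.

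Counts were fitted over all 26642 peaks with DESeq2 1.42.0 (R 4.3.3, median-of-ratios size factors, batch plus group). Alternatives were edgeR 4.0.16, other size factors, no batch covariate, a replicate block, filters, other windows, regional centring (5 Mb either side) and leaving out each library. Ratios of neighbouring peaks (0.5 added to each count) were fitted with limma 3.58.1, a test added after the values were seen. The scripts were tested on simulated data. The members, lists and rules were chosen with earlier results of these data known. The text names, for each member gene, the peak over its start, the peak with the highest mean count and up to 3 called peaks with the smallest adjusted p. Neighbours of these were named after their values were seen. P-values measure the spread between immunoprecipitations of these cell lines.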

Additional observations from a re-analysis of the deposited data

Results flagged for a closer look

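Each of the 68 groups of 6 libraries (34 peaks, control and knockdown) was checked for an outlying library with Dixon's 95% critical value, which by chance marks 1 group in 20. That would be 3.40 groups here, and 3 were found. At the gained peak inside C3orf18 near CISH (50562603 to 50563435), control replicate 4 held 31.2 normalised counts and the other control libraries 13 to 15.2. At the weak gained peak before SOCS3 (78375278 to 78375937), control replicate 4 held 22.5 and the others 6.50 to 11.7. At the peak over the PGS1 start (78377988 to 78379017), control replicate 1 held 46.8 and the others 34 to 38.2. Control replicate 4 had the fewest reads in peaks of all libraries, 630247, and the part of depth in these values was not tested.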

How the results depend on the processing

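Over the 34 single peaks and all settings, 669 of 704 values kept their side of the threshold, 28 lost a call and 7 gained one. Calls turned to the other direction in 0 values. Peaks that were not called could change sign near 0. The peak inside MAPKAPK3, for example, went from -0.017 to 0.054 without control replicate 4. Of the 13 calls, 9 were kept in every setting other than the filter for a fold change over 2, apart from settings that did not test the peak.

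That filter left 6 calls (3 gained, 3 lost) and 24 of the 85 calls near other pathway genes, by its construction. A minimum of 10 counts in every library tested fewer peaks and gave 3 losses and 53 pathway calls. Within 10 kb, 2 of 11 peaks were called (18.2%, with 2 gained, 0 lost and a median log2 fold change of 0.13), and within 100 kb 20 of 54 (37.0%, with 13 gained), against 42.0% of all peaks. The 2 calls within 10 kb, at the SOCS1 start and within GHDC, were kept in only 10 and 16 of 20 settings. Regional centring gave a median of -0.029. In batch 1, edgeR called 10 peaks and in batch 2 13, and the cause was not tested. With the replicate block, 11 peaks were called (6 gained, 5 lost, median 0.032) and 62 pathway peaks, and the calls at the SOCS1 start (adjusted p 0.101) and within GHDC (0.0523) were lost. The labels do not say that replicate numbers pair the samples. Deviations of same-numbered libraries correlated between -0.101 and 0.012. In batch 1 these values cannot decide it, since the deviations of its 2 knockdown libraries mirror each other. In batch 2, same-numbered libraries correlated between -0.035 and 0.012, and libraries of different numbers between -0.020 and 0.035. Pairing was not tested further.

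Without single libraries, the calls ran from 11 to 14, the gains from 6 to 8, the losses from 4 to 6, the median from -0.024 to 0.055 (the latter without control replicate 1) and the pathway calls from 65 to 79. Batch 1 gave 0 to 3 calls, with 0 without control replicate 3 or knockdown replicate 1 or 2, where a lone knockdown library is assumed to vary like the controls, and 2 without control replicate 2. Batch 2 gave 5 to 8 calls, with 5 without control replicate 5.

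At a median of 32.0 reads per member peak and library, a change that was not called is not shown to be absent.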
